A study of Mus musculus with 4 samples.

Results

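Inhibitors of BMP signalling were examined for Smad1 binding at 9 mouse genes, namely Smad6, Smad7, Smurf1, Smurf2, Bambi, Nog, Chrd, Grem1 and Fst, out of 21938 protein-coding genes in the annotation. All peaks of the 5 deposited lists that lay within 20 kb of the GENCODE M21 bodies of these genes on mm10 were collected, 45 peaks in all. The genes were listed for their function. No value measured here set the list, although earlier results of these data were known when it was chosen. Peaks came from Smad1 ChIP–seq on EBs that had been made from GFP-Bry mouse ES cells, for which the labels give the strain C57BL/6. GFP-Bry cells carry a GFP reporter of Brachyury, a gene of the forming mesoderm, and EBs are aggregates in which ES cells differentiate into a mixture of cells. Day 3 EBs were dissociated, allowed to reaggregate for 24 h in DMSO (vehicle) or 10 µM IWR-1, and collected on day 4 (D4 EBs). IWR-1 stabilizes Axin and so blocks the Wnt response. Per treatment, 1 library of Smad1 ChIP and 1 of input chromatin were made, so no difference between treatments has a replicate check, no test between them is given, and a difference between the treatments and a difference between the libraries cannot be told apart. A change in the share of cells bound cannot be told apart from a change in the makeup of the EBs.

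The lists give peak positions called by MACS and by QESEQ, programs that search aligned reads for enriched intervals, and only MACS gives a score, which grows as the p-value of a peak falls. Read counts are not part of the lists, which leaves the depth of single peaks unknown, and a peak that is missing from a list did not pass the caller's threshold, which is not a measured loss of binding. For DMSO the lists hold 15927 MACS and 26070 QESEQ peaks, of which 10466 QESEQ intervals form a further list of common sites. For IWR-1 QESEQ listed 16261 peaks, and a remaining MACS list holds 7815. Sample labels and contents disagree: the DMSO MACS list and the common sites are deposited under the DMSO input, the DMSO QESEQ list under the IWR-1 input, and the remaining MACS list under the DMSO ChIP. The DMSO lists were recognised by coordinates, since all 10466 common sites are intervals of that QESEQ list and overlap peaks of that MACS list, whereas 2701 overlap the other MACS list. That list is called the second MACS list here and its link to IWR-1 rests on elimination alone, so the counts that use it are also given without it or name it. No expression was measured in these samples, and cell identity was not checked against markers.

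BMP ligands bind a receptor complex that phosphorylates Smad1, which enters the nucleus with Smad4 and binds DNA at GC-rich elements (GGCGCC and GGAGCC) and at Smad boxes (CAGACA, or the palindrome GTCTAGAC). The pathway is held back at several levels, and several of its inhibitors are themselves induced by BMP, which closes a feedback loop. Inside the cell, Smad6 and Smad7 are inhibitory Smads that compete for receptors and partner Smads, and Smurf1 and Smurf2 are ubiquitin ligases that direct Smads and receptors to degradation. Bambi is a membrane protein that resembles a type I receptor but lacks its kinase. Nog (Noggin), Chrd (Chordin), Grem1 (Gremlin 1) and Fst (Follistatin) are secreted proteins that bind ligands, Fst mainly activins and also some BMPs.

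Sequences are printed for the sites on which the description turns, from GRCm38, the assembly behind mm10, on the strand of the gene (minus for each), 5′ to 3′. Capitals mark Smad elements on either strand (TGTCTG is CAGACA read from the other strand), the TCF/LEF element CTTTGAT, and runs of at least 7 A or 7 T. The Smad6 pieces are shown because they carry 4 elements and no run, and the pieces of Grem1, Smurf2 and Nog because a long run lies in every one of them. For Smad6, 14 bases at the end of the start piece and the whole exon 1 piece are untranslated.
Smad6 start, DMSO QESEQ (chr9:64022046-64022156): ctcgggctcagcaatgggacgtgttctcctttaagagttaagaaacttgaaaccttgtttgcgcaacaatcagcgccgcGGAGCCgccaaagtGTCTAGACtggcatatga
Smad6 exon 1, DMSO QESEQ (chr9:64021811-64021840): ctcggcagccgcGGCGCCcgaagcgaccca
Smad6 intron 3, DMSO QESEQ (chr9:64002741-64002836): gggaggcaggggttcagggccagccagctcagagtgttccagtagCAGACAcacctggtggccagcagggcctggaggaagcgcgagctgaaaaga
Grem1 intron 1, common site (chr2:113755686-113755796): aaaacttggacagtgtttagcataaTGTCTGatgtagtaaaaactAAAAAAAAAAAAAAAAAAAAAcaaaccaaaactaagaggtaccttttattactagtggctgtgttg
Smurf2 intron 1, common site called in every list (chr11:106913860-106913976): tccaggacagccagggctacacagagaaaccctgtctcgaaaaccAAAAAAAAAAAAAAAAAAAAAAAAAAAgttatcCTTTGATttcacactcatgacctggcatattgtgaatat
Smurf2 intron 1, common site called with DMSO only (chr11:106899990-106900107): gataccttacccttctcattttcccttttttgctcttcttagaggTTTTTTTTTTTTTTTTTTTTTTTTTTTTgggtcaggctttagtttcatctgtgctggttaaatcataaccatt
Smurf2 upstream, common site called with DMSO only (chr11:106934253-106934370): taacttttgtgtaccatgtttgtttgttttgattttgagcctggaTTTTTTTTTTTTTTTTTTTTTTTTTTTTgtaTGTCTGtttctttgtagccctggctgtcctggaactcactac
Nog downstream, DMSO MACS peak (chr11:89289917-89290027): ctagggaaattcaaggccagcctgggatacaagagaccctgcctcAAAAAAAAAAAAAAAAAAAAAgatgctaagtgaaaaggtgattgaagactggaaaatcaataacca

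Common DMSO sites, the intervals of QESEQ that the authors kept as shared with MACS, lay at Smurf1, Smurf2 and Grem1 and at none of the other inhibitors. These 3 of 9 genes make 33.3% (95% exact binomial interval 7.49 to 70.1%), against 35.1% of all protein-coding genes by the same rule, so the share was near the background. MACS alone added Nog, which gave 4 of 9 genes (44.4%, background 44.2%). QESEQ listed a DMSO peak at every inhibitor but Fst, 8 of 9 genes (88.9%, interval 51.8 to 99.7%), where the background was 60.2%. Taking either caller left the count at 8 of 9, with a background of 64.3%. Genes differ in the length searched, from 41.7 kb at Nog to 140.7 kb at Smurf2, and a longer window can hold more peaks. Per Mb of window, the inhibitors had 7.29 common sites against 5.04 over all protein-coding genes, and 27.7 DMSO QESEQ peaks against 12.8. The IWR-1 lists were denser there too, with 14.6 QESEQ peaks against 8.07 and 7.29 second MACS peaks against 3.52. DMSO MACS had 8.75 against 7.23. These densities have no interval and were not tested.

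**Figure D1:**
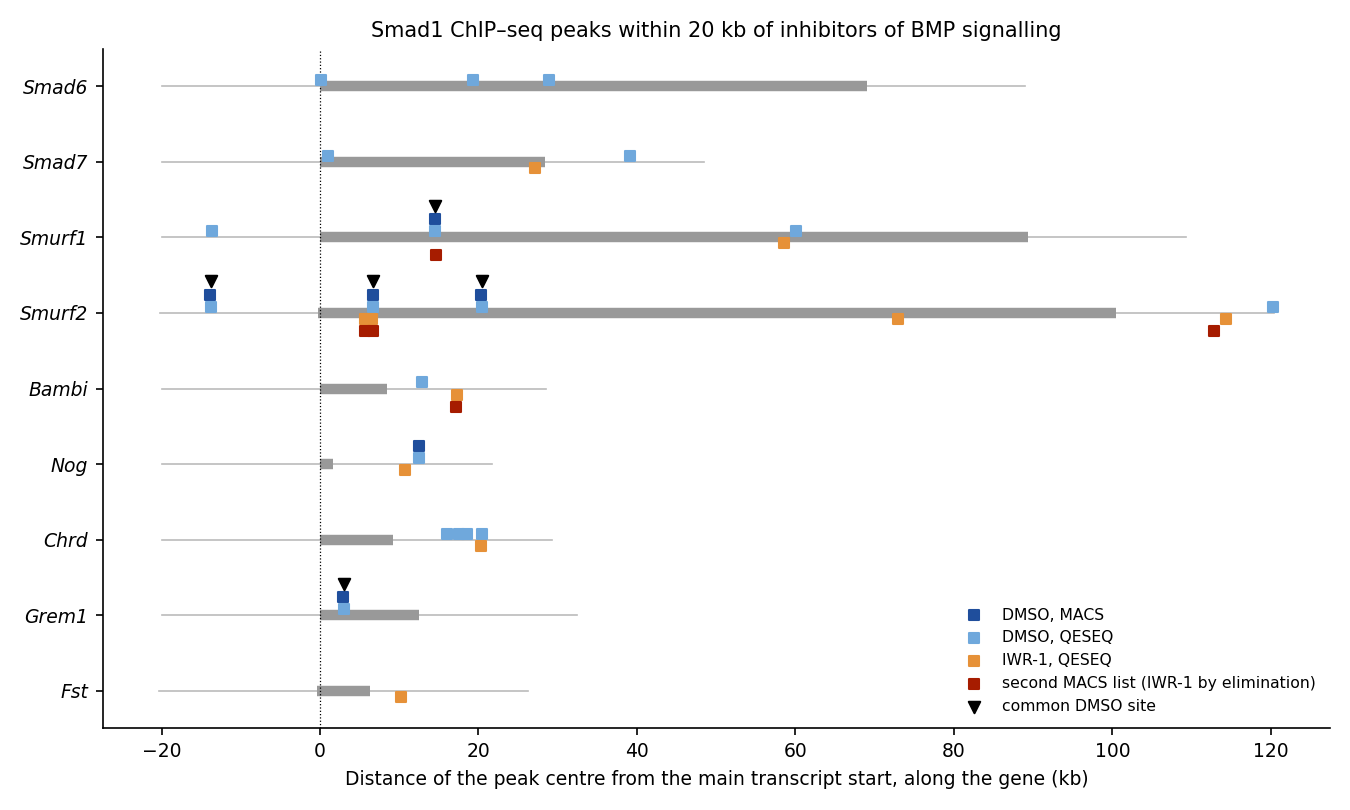
Peaks of the 5 lists by gene, placed by the distance of the peak centre from the main transcript start in kb along the direction of transcription; thick grey bars are gene bodies, thin lines the 20 kb searched on either side, squares the peaks of each caller's list and triangles the common DMSO sites. The 5 common sites sit at Smurf1 (1), Smurf2 (3) and Grem1 (1), Smad6 has DMSO QESEQ peaks alone, and Fst has an IWR-1 peak alone.

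Overlapping peaks of all lists were joined into regions, which gave 28 regions over the 9 genes. Of these, 16 were called with DMSO only (57.1%), 9 with IWR-1 only (32.1%) and 3 with both treatments (10.7%). Joined by the same rule, the 40602 regions of the genome were called with DMSO only in 51.4%, with IWR-1 only in 24.2% and with both in 24.4%, so calls in a single treatment were the rule throughout. A region of Smurf1 counts as called with both, and a region beyond Smurf2 as called with IWR-1 only, through the second MACS list alone. Without that list 27 regions remained, of which 17 were called with DMSO only, 8 with IWR-1 only and 2 with both. As the map of the calls shows, 13 regions lay downstream of the gene, 2 upstream and 10 in introns, 7 of the latter in intron 1. Another 3 lay over exons, at Smad6 and Smad7. Centres within 5 kb of the main transcript start were seen in 3 regions, those at the starts of Smad6 and Smad7 and in intron 1 of Grem1. The window of Smurf2 alone held 8 of the 28 regions, 3 of which overlapped the neighbouring gene Cep95 and not Smurf2. QESEQ without MACS listed 19 regions. No share over all regions of the genome is given for place, distance from the start or caller. These counts therefore describe the 28 regions and do not set the inhibitors apart.

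Smad6 (ENSMUSG00000036867.7, chr9:63953076-64022059, minus strand) had 3 regions, and each was a DMSO QESEQ peak without a MACS call. The peak at the gene start spanned 64021779 to 64022156, from just upstream of the gene into the untranslated part of exon 1, with its centre 92 bp downstream of the start. It held 3 of the 4 Smad elements searched. Counting the first base of the transcript as 0, the palindrome GTCTAGAC lay across the start from position -4 to 3, GGAGCC lay before it from -18 to -13, and GGCGCC lay inside exon 1 from 231 to 236. Its GC content was 64.3%, and no run of A or T in it passed 6 bases. Over the DMSO QESEQ list, 0.399% of 26067 peaks with sequence held GTCTAGAC, 2.12% held GGCGCC and 0.472% held at least 3 of the 4 elements. The Smad6 start thus belonged to a small minority of that list. The list was not matched to this peak for place or GC content, and its median GC content was 42.4%. Of 32851 promoters, 11.9% held GGCGCC, 0.213% held GTCTAGAC and 0.721% held at least 3 of the elements.

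Both other Smad6 peaks lay in intron 3. That from 64002584 to 64002929, centred 19.3 kb from the start, held the CAGACA printed above, 32 bp from its centre, with a GC content of 58.4%. That from 63992970 to 63993460, at 28.8 kb, held none of the 4 elements, and its GC content was 53.0%. Neither held a run over 4 bases. Neither IWR-1 list had any peak within 20 kb of Smad6, so all calls at this gene were on the DMSO side, although MACS listed none of them.

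Smad7 (ENSMUSG00000025880.11, chr18:75367529-75395935, plus strand), the inhibitory Smad that acts on both BMP and TGF-β receptors, had a DMSO QESEQ peak in the untranslated part of exon 1, from 75368340 to 75368669. Its centre lay 976 bp from the start, and it held GGAGCC and a run of 19 bases. A further DMSO QESEQ peak lay downstream of the gene, from 75406443 to 75406866. The IWR-1 QESEQ peak was elsewhere, over the untranslated part of exon 4 from 75394446 to 75394997, 27.2 kb from the start and 11.4 kb from the nearest DMSO region. Smad6 and Smad7 were the inhibitors with a DMSO QESEQ peak within 1 kb of the main transcript start, 2 of 9 genes, where 5.44% of protein-coding genes had such a peak. With IWR-1, QESEQ had no peak within 1 kb of the start of any of the 9 genes. The background was 3.30%, so the absence of such a peak among 9 genes was near it. These shares have no interval, and the difference between the treatments was not tested.

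Smurf1 (ENSMUSG00000038780.14, chr5:144876495-144965847, minus strand), a ubiquitin ligase that binds Smad1 and Smad5, had a common DMSO site in intron 1 from 144951137 to 144951529, 14.5 kb from the start. MACS placed it from 144951082 to 144951581. The second MACS list called the same place from 144951098 to 144951431, and the IWR-1 QESEQ list did not. No Smad element was found in the site, and its longest run was 16 bases. Deeper in intron 1, near 60.0 kb from the start, a DMSO QESEQ peak lay from 144905475 to 144906162 and an IWR-1 QESEQ peak from 144906935 to 144907526. These neighbours were 772 bp apart and did not overlap, and each held CAGACA. Upstream of the gene, at -13.6 kb from the start, a DMSO QESEQ peak from 144979173 to 144979734 held none of the elements.

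Smurf2 (ENSMUSG00000018363.16, chr11:106820066-106920715, minus strand), the related ligase that Smad7 recruits to receptors, had 3 common DMSO sites. That from 106913385 to 106914296, in intron 1 and 6.6 kb from the start of the main transcript, was the only region near these inhibitors that was called in every list. MACS placed it from 106913456 to 106914108 with DMSO, the second MACS list from 106913655 to 106914025, and QESEQ from 106913655 to 106914121 with IWR-1. It held none of the Smad elements. The TCF/LEF element CTTTGAT stood 6 bases from a run of 27 A. The GATA element AGATAA lay 2 bp from the centres of the common site and of the second MACS peak. It lay 60 bp from the centre of the DMSO MACS peak and 46 bp from that of the IWR-1 QESEQ peak.

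The other common sites of Smurf2 had no call in either IWR-1 list. In intron 1, 20.4 kb from the start, the site from 106899839 to 106900303 held a run of 28 T and no Smad element. The MACS peak of this site ran on to 106900354 and there held CAGACA. Upstream of the gene, at -13.8 kb from the start, the site from 106933869 to 106934573 also held a run of 28 T, with GGAGCC and 2 copies of CAGACA, of which that printed above was 3 bases from the run. These sites had much the same run length as the site called with both treatments.

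Calls with IWR-1 only were also most frequent at Smurf2, the longest of the windows, with 4 of 9 such regions, of which 1 rests on the second MACS list alone. In intron 1, QESEQ called 106914517 to 106915086 and the second MACS list 106914602 to 106914948, 220 bp from the common site at 6.6 kb, with a run of 20 bases. In intron 9, QESEQ called 106847295 to 106847822, with CAGACA. Beyond the 3′ end of Smurf2, 3 regions overlapped the neighbouring gene Cep95 and not Smurf2. They were an IWR-1 QESEQ peak from 106805624 to 106806509, a peak of the second MACS list from 106807568 to 106807813, and a DMSO QESEQ peak from 106800137 to 106800327. These lie inside the distance searched, but by position they belong to Cep95.

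Bambi (ENSMUSG00000024232.2, chr18:3507923-3516404, plus strand) had its peaks downstream of the gene. The DMSO QESEQ peak, from 3520635 to 3521080 and 12.9 kb from the start, held 2 copies of GGAGCC and a run of 26 bases. With IWR-1, QESEQ called 3524971 to 3525398 and the second MACS list 3524919 to 3525332, 17.2 kb from the start. This IWR-1 region was 3.8 kb from the DMSO region, held no Smad element, had a run of 28 bases and consisted of repeat-masked sequence to 99.4%, which is sequence to which reads may map in several places.

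Among the secreted inhibitors, Grem1 (ENSMUSG00000074934.3, chr2:113746164-113758646, minus strand) alone had a common DMSO site, in intron 1 from 113755499 to 113755863, with a MACS peak from 113755559 to 113755986. It held a Smad box of the CAGACA type 14 bases from a run of 21 A. The box lay 88 bp from the centre of the common site and 4 bp from that of the MACS peak. Neither IWR-1 list had a peak near Grem1. Nog (ENSMUSG00000048616.4, chr11:89300638-89302332, minus strand) had a DMSO region 12.5 kb from the start and beyond the gene, called by MACS from 89289609 to 89290150 and by QESEQ from 89289665 to 89289906. Although these calls overlapped, the place is not in the list of common sites. The run of 21 A printed for Nog lay in the MACS peak outside the QESEQ interval. With IWR-1, QESEQ called 89291305 to 89291917, 1154 bp from the DMSO region.

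Chrd (ENSMUSG00000006958.14, chr16:20733127-20742384, plus strand) had 4 DMSO QESEQ peaks in 5.0 kb of sequence downstream of the gene, and no MACS call. They spanned 20748888 to 20749443, 20750518 to 20750911, 20751428 to 20752054 and 20753258 to 20753866, 16.0 to 20.4 kb from the start, and the annotated start nearest to each was that of the snRNA gene Gm22741. The last of them overlapped an IWR-1 QESEQ peak from 20753208 to 20753592 and held no Smad element. Of the others, that at 17.6 kb held GGAGCC and that at 18.6 kb held 2 copies of CAGACA. Runs of 19 to 31 bases were found in the 4 regions. Fst (ENSMUSG00000021765.9, chr13:114452290-114458951, minus strand) was the inhibitor with no DMSO peak. Its single call was an IWR-1 QESEQ peak from 114448089 to 114448621, downstream of the gene and 10.2 kb from the start, with CAGACA 28 bases from a run of 26.

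The common DMSO sites near these genes had MACS scores below the median of the DMSO list. The common site of Smurf1 scored 64.1, at percentile 47.1 of the DMSO MACS list, and that of Grem1 scored 57.27, at percentile 27.3. The 3 sites of Smurf2 scored 54.35, 54.67 and 54.9, at percentiles 17.2 to 19.1. The median of the list was 65.3, its lowest score 50.0 and its highest 3226.07. The site of Smurf1 was close to the median, and those of Grem1 and Smurf2 were nearer to the lowest score. The median of the 5 sites, 54.9, compares with 66.6 over all 10466 common sites. The highest DMSO score near these inhibitors was that of the Nog peak, 78.13 (percentile 72.8), which is not a common site.

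**Figure D2:**
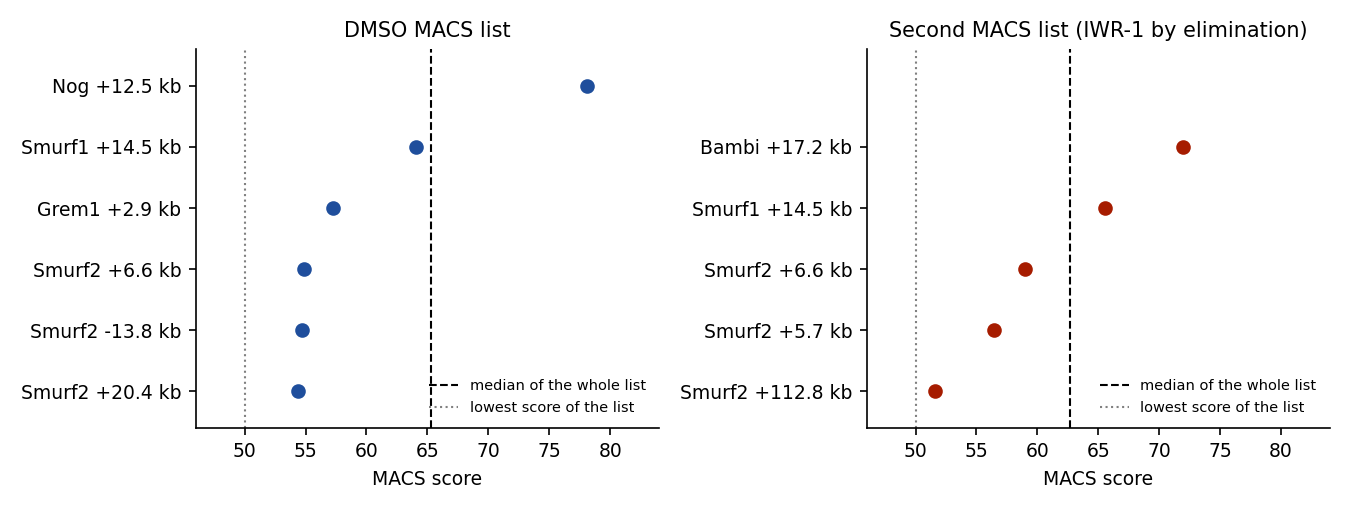
MACS scores of every MACS peak near the 9 inhibitors, on the left in the DMSO list and on the right in the second MACS list, each named by gene and by the distance of its region from the main transcript start in kb; dashed lines give the median of the whole list and dotted lines its lowest score. Of 6 DMSO peaks only that of Nog (78.13) passes the median of 65.3, and the 3 peaks of Smurf2 lie between 54.35 and 54.9.

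In the second MACS list the peak at the Smurf1 site scored 65.54 (percentile 56.9), and that at the shared Smurf2 site 58.95 (percentile 39.1). The peak at 5.7 kb in Smurf2 scored 56.45, the peak in Cep95 51.59, and the Bambi peak, the highest of the 5, 71.93 (percentile 67.5). The median of that list was 62.7, so these peaks fell on both sides of it. Scores depend on the depth and background of each library and were not compared between the lists.

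With IWR-1, 1 of the 5 common sites, that of Smurf2 at 6.6 kb, was called again by QESEQ (20.0%, interval 0.505 to 71.6%), and the background over all common sites was 37.0%. The second MACS list called 2 of the 5 (40.0%, interval 5.27 to 85.3%, background 25.8%), adding Smurf1. Over QESEQ alone, 2 of 19 DMSO peaks overlapped an IWR-1 peak (10.5%, interval 1.30 to 33.1%), where the background was 25.8% as well. Of the 6 DMSO MACS peaks, 2 overlapped the second MACS list (33.3%, background 28.5%). The intervals given for these shares include their backgrounds and span much of the range, so at this number of sites no difference from the rest of the genome was detectable.

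In the other direction, 2 of 10 IWR-1 QESEQ peaks near the inhibitors overlapped a DMSO peak of either caller (20.0%, interval 2.52 to 55.6%, background 47.1%). IWR-1 QESEQ peaks were present at 7 of 9 genes (77.8%, interval 40.0 to 97.2%, background 47.2%), all but Smad6 and Grem1. Adding the second MACS list left it at 7 of 9 (background 52.0%). Taken alone, the second MACS list had peaks at 3 of 9 genes, Smurf1, Smurf2 and Bambi (background 26.8%). Smurf1, Smurf2 and Chrd had a region called at the same place with both treatments, at Smurf1 through the second MACS list alone. Smad7, Bambi and Nog were called with both treatments at separate places. Of the 9 regions called with IWR-1 only, 4 lay within 5 kb of a DMSO region (44.4%), where 17.6% of all 9832 such regions of the genome did. These regions belong to 4 genes with DMSO peaks nearby. DMSO QESEQ peaks were also denser near the inhibitors than over all protein-coding genes (27.7 against 12.8 per Mb), for which the shares were not adjusted. The difference was not tested. The callers themselves overlapped in part with DMSO, where 6 of 19 QESEQ peaks met a MACS peak (31.6%, interval 12.6 to 56.6%, background 42.9%). Whether positions that differ between treatments differ in binding was not tested, since no read counts were at hand.

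Long runs of adenine, or of thymine on the other strand, were found in most of the regions. All 5 common sites held a run of at least 7 bases (100%, interval 47.8 to 100%), as did 90.3% of all 10466 common sites. Windows of the same width 2 kb to either side of all common sites held one in 29.8%. Of the 10 such windows beside the 5 sites, 4 held one (40.0%). The runs of these 5 regions were 16 to 28 bases long. Repeat-masked sequence made up 16.2% (Grem1) to 74.0% (Smurf1) of the 5 common sites. Their median was 33.2%, against 38.2% over all common sites. The caution given for Bambi, that reads may map in several places, applies to masked sequence here too. Of the 28 regions, 21 held such a run (75.0%, against 76.4% of all regions). A run of at least 10 was held by 18, for which no share over all regions is given. The 3 regions called with both treatments, at Smurf2, at Chrd and, through the second MACS list alone, at Smurf1, all held runs, of 16 to 29 bases, and none of the Smad elements. Over the genome, 90.7% of regions called with both treatments held such a run and 53.7% held a Smad element. Of the 19 DMSO QESEQ peaks, 13 held a run of at least 7 (68.4%), against 79.8% of that list.

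**Figure D3:**
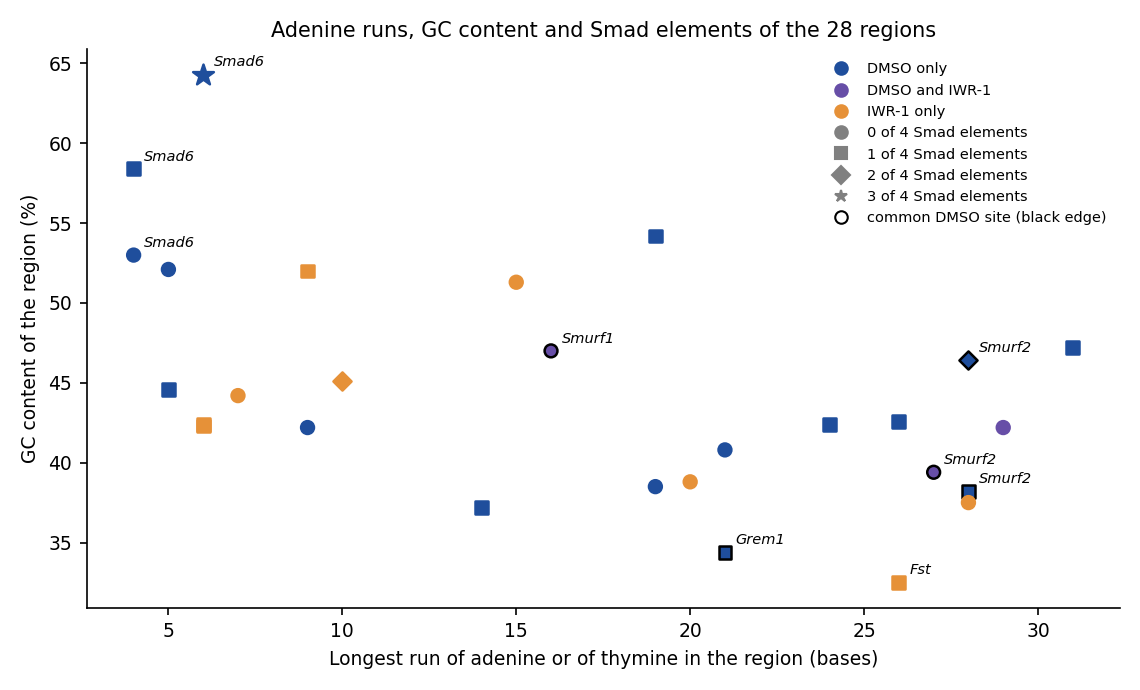
Longest run of adenine or thymine (horizontal, bases) against GC content (vertical, %) for the 28 regions. Colours give the treatment (Smurf1 through the second MACS list for IWR-1). Shapes give the number of Smad element kinds in the whole region, and black edges mark the regions that hold a common DMSO site. The 3 regions of Smad6 sit at runs of 4 to 6 bases and a GC content of 53.0 to 64.3%. The 5 regions with a common site sit at runs of 16 to 28 bases and 34.4 to 47.0%. In the Smurf2 region at 20.4 kb the Smad element lies outside the common site. Points at 6 bases of Smurf2 nearly coincide.

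The regions of Smad6 stood at the low end for runs, 4 to 6 bases, and at the high end for GC content, 53.0 to 64.3%. The 25 regions of the other 8 genes had runs of 5 to 31 bases and a GC content of 32.5 to 54.2%, so the ranges overlapped in both measures. Since the 3 regions belong to 1 gene, no test was made.

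Smad elements were present in 2 of the 5 common sites (40.0%, interval 5.27 to 85.3%), the intron of Grem1 and the upstream site of Smurf2. Over all common sites, 44.2% held one, as did 47.0% of the windows beside them. Of the 10 windows beside the 5 sites of the inhibitors, 6 held one (60.0%). Among the DMSO QESEQ peaks of the inhibitors, 10 of 19 held an element (52.6%), against 47.4% of the list and 49.2% of its neighbouring windows. Among IWR-1 QESEQ peaks it was 4 of 10 (40.0%), against 48.7%. These shares by peak were near their backgrounds. By region, 11 of 16 called with DMSO only held an element (68.8%, against 47.4% of all such regions), and so did 5 of 9 called with IWR-1 only (55.6%, against 48.2%). GGCGCC with GTCT on the same strand after 5 bases, the composite element known from BMP target genes, was in none of the peaks near the inhibitors. The TCF/LEF elements CTTTGAT or CTTTGTT were in 8 of 28 regions (28.6%, against 20.6% of all regions), and in 1 of the 5 common sites against 18.3% of all common sites. The AP-1 element TGACTCA was in 1 region, that in Cep95. A match gives letters only and does not show that a factor was bound.

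Promoter sequences of 300 bases around the start were taken from RefSeq (GRCm38.p6) for 5 of the 9 genes, namely Smad6, Smurf1, Smurf2, Chrd and Grem1. GTCTAGAC was in the promoter of Smad6 and in 70 of 32851 promoters (0.213%). At least 3 of the 4 elements were in the promoters of Smurf2 and Chrd and in 0.721% of all, but neither of those promoters had a Smad1 peak in any list. The Smad6 promoter was the only matched promoter with a peak. GGAGCC, which 30.8% of promoters hold, was in 4 of the 5, and the composite element was in none of them and in 0.0731% of all.

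Other genes of the pathway were counted by the same rule. Common DMSO sites lay near 9 of 12 receptors and transducers (75.0%, interval 42.8 to 94.5%), namely Bmpr1a, Bmpr1b, Bmpr2, Acvr1, Acvrl1, Acvr2a, Eng, Smad1 and Smad4. Ligands had them at 2 of 12, Bmp5 and Bmp6 (16.7%, interval 2.09 to 48.4%). Other secreted antagonists had them at 4 of 12, Sost, Twsg1, Bmper and Fstl1 (33.3%), the same share as the inhibitors described here. Other intracellular inhibitors had them at 4 of 6, Skil, Tob2, Ppm1a and Ctdsp1 (66.7%), and target genes at 4 of 8, Id1, Id2, Id3 and Msx2 (50.0%). All these intervals include the share of the inhibitors, 33.3%, apart from that of receptors and transducers, which overlaps the interval of the inhibitors, and differences between the groups were not tested. Per Mb of window, these 50 genes had 7.53 common sites, close to the 7.29 of the inhibitors. They had 17.3 DMSO QESEQ peaks per Mb, between the 27.7 of the inhibitors and the 12.8 of all protein-coding genes.

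**Figure D4:**
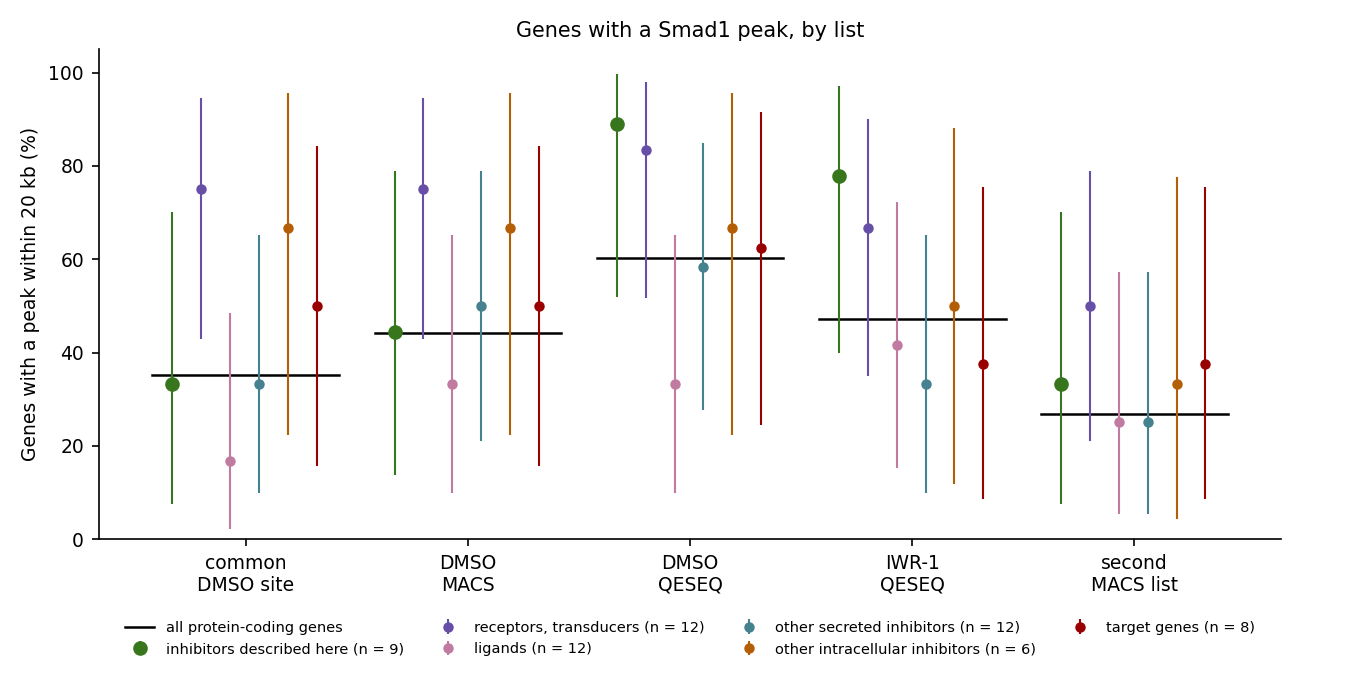
Share of genes (%) with a peak within 20 kb of the gene body, for the 9 inhibitors and 5 other groups of BMP pathway genes in each of the 5 lists; bars are 95% exact binomial intervals over genes and black lines give the share of all 21938 protein-coding genes. The inhibitors sit on the line for common sites (33.3% against 35.1%) and above it for DMSO QESEQ (88.9% against 60.2%) and IWR-1 QESEQ (77.8% against 47.2%), with intervals that include it.

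Scores of the best common sites of target genes were higher than those near the inhibitors in Id2 (148.19), Msx2 (82.24) and Id3 (80.29), and that of Id1 was 53.15. QESEQ called 14 of the 33 common sites of the 50 genes again with IWR-1, beside 1 of 5 at the inhibitors described here and 37.0% of all common sites. By group this was 6 of 16 at receptors and transducers, 2 of 3 at ligands, 3 of 4 at target genes, 3 of 4 at the other intracellular inhibitors and 0 of 6 at the other secreted antagonists. These counts are small, and their differences were not tested.

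The limit of 20 kb decided which peaks were counted. Just inside it, the DMSO QESEQ peak in Cep95 lay 19.7 kb from the end of Smurf2, followed by peaks at 13.6 kb and below. Just outside it, the nearest were an IWR-1 QESEQ peak 23.1 kb from Chrd, DMSO QESEQ peaks 23.6 and 24.4 kb from Smad7, and DMSO QESEQ peaks 26.3 kb from Smad6 and 26.4 kb from Bambi.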

How the data were processed

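Smad1 ChIP and input chromatin of D4 EBs were sequenced, with 1 library each per treatment. The submitters' processing notes name CASAVA 1.8, Bowtie2 2.1.0 and MACS 1.0.1. After alignment to mm10 and removal of PCR duplicates, the authors ran MACS and QESEQ to call peaks. The QESEQ version is not given in the sources used here. The deposited lists hold peak positions and, for MACS, a score per peak; other columns hold names. Positions were read as counted from 0 and are printed counted from 1. Here, peaks within 20 kb of GENCODE M21 gene bodies were collected, overlap was counted from 1 bp, and all protein-coding genes or whole lists served as background. Each of the 9 genes is reported with every peak, other BMP genes where they have a common site. Intervals are 95% exact binomial (Clopper-Pearson) and cover counting error only. Motifs were searched on both strands in whole peaks. The genes and motif lists were chosen with earlier results of these data known. Alternatives covered window, gene model, list, score, overlap, run length and motif; those using all DMSO QESEQ peaks, and leaving the second MACS list out of the joined regions, were added after seeing the data. Python 3.11.15, numpy 2.4.6, scipy 1.17.1, pysam 0.24.0, samtools 1.23.1 and matplotlib 3.10.9 were used. The search steps were tested on 10000 simulated sites, all of which were classed as planted. The sequence of 1 further site is not reported here.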

Additional observations from a re-analysis of the deposited data

How the results depend on the processing

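Of 46 alternative values, 35 stayed within 1.5 times the reported count or within its interval and 11 moved. Shares over 5 sites have wide intervals, such as 0.505 to 71.6%. A share of 20.0% that became 40.0% therefore counts as having stayed, and the total of 35 does not measure stability. The number of inhibitors with a common DMSO site, 3, was 8 on the DMSO QESEQ list and 0 with a MACS score of at least 100. With that score no common site remained, so its share with IWR-1 was not computed. The number with a DMSO call, 8, was 5 within gene bodies (0 kb) and 4 on the DMSO MACS list alone. The number with an IWR-1 call, 7, was 3 within gene bodies, 4 within 5 kb and 3 on the second MACS list alone. Backgrounds for single lists are given above. For the other windows and for a score of at least 100, no share of all protein-coding genes is given. Those moves therefore cannot be set against a background. The number of peaks, 45, was 25 within gene bodies, 27 within 5 kb and 83 within 50 kb. The share of common sites with a Smad element, 40.0%, was 0% with GGCGCC alone. No paired analysis was possible because each group has 1 library. Depth per peak is unknown, and the lists cannot show whether a missing call is a loss of binding.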
